A study of Rattus norvegicus with 10 samples.

Results

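Aminoacyl-tRNA synthetases are the enzymes that load each amino acid onto its tRNA. Their transcripts were followed in rat thyroid cells depleted of the transcription factor FoxE1. The members were chosen by name, as the nuclear genes for the synthetases of the cytosol (19 genes) and of the mitochondrion (16 genes), 35 in all. Of these, 31 had a probe (18 cytosolic and 13 mitochondrial, 40 probes), among 15154 genes that could be named on the array. Gars1, Iars2, Lars2 and Mars2 could be tied to no probe and were not analysed here. All 31 passed the filter on dim probes in both comparisons.

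PCCl3 is a differentiated rat thyroid follicular cell line. The siFoxE1 cells had received 25 nM of an siRNA against Foxe1 and were harvested 48 h later. The siScramble cells had received a scrambled siRNA, and the wt cells were PCCl3 cells that had not been silenced. Each of 10 two-colour arrays set siFoxE1 RNA against siScramble RNA (5 arrays) or against wt RNA (5 arrays). Per comparison, 4 arrays carried one silencing experiment each, called cultures 1 to 4 here, and the fifth carried pooled RNA with the dyes exchanged. The study's design scheme draws both comparisons from the same siFoxE1 cultures, so they are not treated as independent of each other, and all cells came from 1 line. In RNA from whole cultures, fewer cells with a transcript and less transcript per cell cannot be told apart.

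A cell makes protein in 2 places and needs a loaded tRNA set in each. Most amino acids therefore have one nuclear gene for the cytosolic enzyme, named with a 1, and another for an enzyme that is imported into mitochondria, named with a 2. Gars1 and Kars1 supply both compartments. In mammalian cells many of the cytosolic genes belong to the programme of ATF4, a transcription factor made when amino acids are short or when unfolded protein builds up in the endoplasmic reticulum (ER). Thyroid follicular cells secrete thyroglobulin and depend heavily on that organelle.

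Foxe1 itself was lower on every array. Its log2 ratios of siFoxE1 over siScramble were -0.77, -0.46, -0.62 and -0.39 in cultures 1 to 4 and -1.03 in the pool, and those of siFoxE1 over wt were -0.52, -0.55, -0.34 and -0.62 in cultures 1 to 4 and -1.21 in the pool. The fitted values were -0.80 ± 0.086 (SE, adjusted p = 0.0227) against siScramble and -0.86 ± 0.077 (SE, adjusted p = 0.0333) against wt, by limma with Benjamini-Hochberg adjustment over all tested probes. Of 12 thyroid follicular markers 11 were tested, among them Tg, Pax8 and Nkx2-1. Of 8 fibroblast markers 3 were tested, of 8 leukocyte markers 4, of 4 endothelial markers 2 and of 5 C cell markers 2. Col1a1, Col1a2, Pdgfra, Aif1, Csf1r, Cd68, Cd14 and Cdh5 had a probe well above background in the siFoxE1 and the other channel of all 10 arrays, whereas Dcn, Lum, Itgam, Pecam1, Tek, Chga and Scg2 were not well above background on any array. Cd68, a marker of macrophages, was lower against siScramble at -0.66 ± 0.065 (SE, adjusted p = 0.0147), with 0.10, -0.01, 0.01 and 0.00 in cultures 1 to 4 and -1.34 in the pool, and stood at -0.09 against wt. The part of other cell types in the values of the synthetases was not tested. Between 56.8% and 68.2% of spots were well above background in a channel. The number of arrays limits the precision.

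A negative log2 ratio on an array means that the siFoxE1 channel was dimmer than the other. In the main fit, made for each comparison alone, the fitted log2 ratio carried a term for the dyes. It is the midpoint between the mean of the 4 culture arrays and the pool array, so the pool weighed as much as the 4 culture arrays together. Other fits weighed the pool differently, and their values are not this midpoint. These were the fits of all arrays together, of the culture arrays alone, without the dye term or with the slide as a term. For Cars1 over wt the main fit gave -0.415 and the fit of all arrays together -0.438. The pool holds RNA of the same cultures, and n was 4 cultures.

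The cytosolic synthetases lay below 0 and the mitochondrial ones around 0 in both comparisons. Against siScramble, all 18 cytosolic members had a fitted value below 0 (median -0.25, range -0.47 to -0.01), whereas 2 of 13 mitochondrial members did (median 0.06, range -0.17 to 0.23). Among all probes tested in that comparison 53.1% were below 0 and the median was -0.01. Against wt, 17 of 18 cytosolic members were below 0 (median -0.35, range -0.56 to 0.09) and 5 of 13 mitochondrial members (median 0.02, range -0.20 to 0.30), beside 53.2% of all tested probes and a median of -0.01. Mars1, the methionyl enzyme, was the cytosolic member above 0. The probes of the 2 groups also differed in brightness. In the wt cultures the mean log2 brightness ran from 8.17 (Hars1) to 14.62 (Wars1) for cytosolic members. For mitochondrial members it ran from 6.46 (Aars2) to 12.34 (Tars2). The part of brightness in the contrast was not tested.

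No single member passed an adjusted p of 0.05 when the 5 arrays of a comparison were fitted alone. That threshold was passed by 22 of 18135 probes against siScramble (0.121%) and by 9 of 18525 against wt (0.0486%). At an unadjusted p under 0.05, 12 of 18 cytosolic members were lower in siFoxE1 than in siScramble cells, where the background of all tested probes was 6.71%, and 10 of 18 were lower than in wt cells, where it was 9.14%. Among the 13 mitochondrial members, Tars2 was lower and Yars2 higher against siScramble at that level, and Tars2 alone against wt, with 6.42% of all probes higher against siScramble and 8.02% against wt. When all 10 arrays were fitted together with the culture number as a block, 8 of 18 cytosolic members passed an adjusted p of 0.05 against wt, all of them lower in siFoxE1 cells, and no mitochondrial member did. They were Aars1, Cars1, Hars1, Sars1, Tars1, Vars1, Wars1 and Yars1, with values between -0.38 and -0.58 and adjusted p between 0.0138 and 0.0487. In that fit 3.96% of all probes were called lower. Against siScramble the same fit called no member, and 0.36% of all probes.

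**Figure D1:**
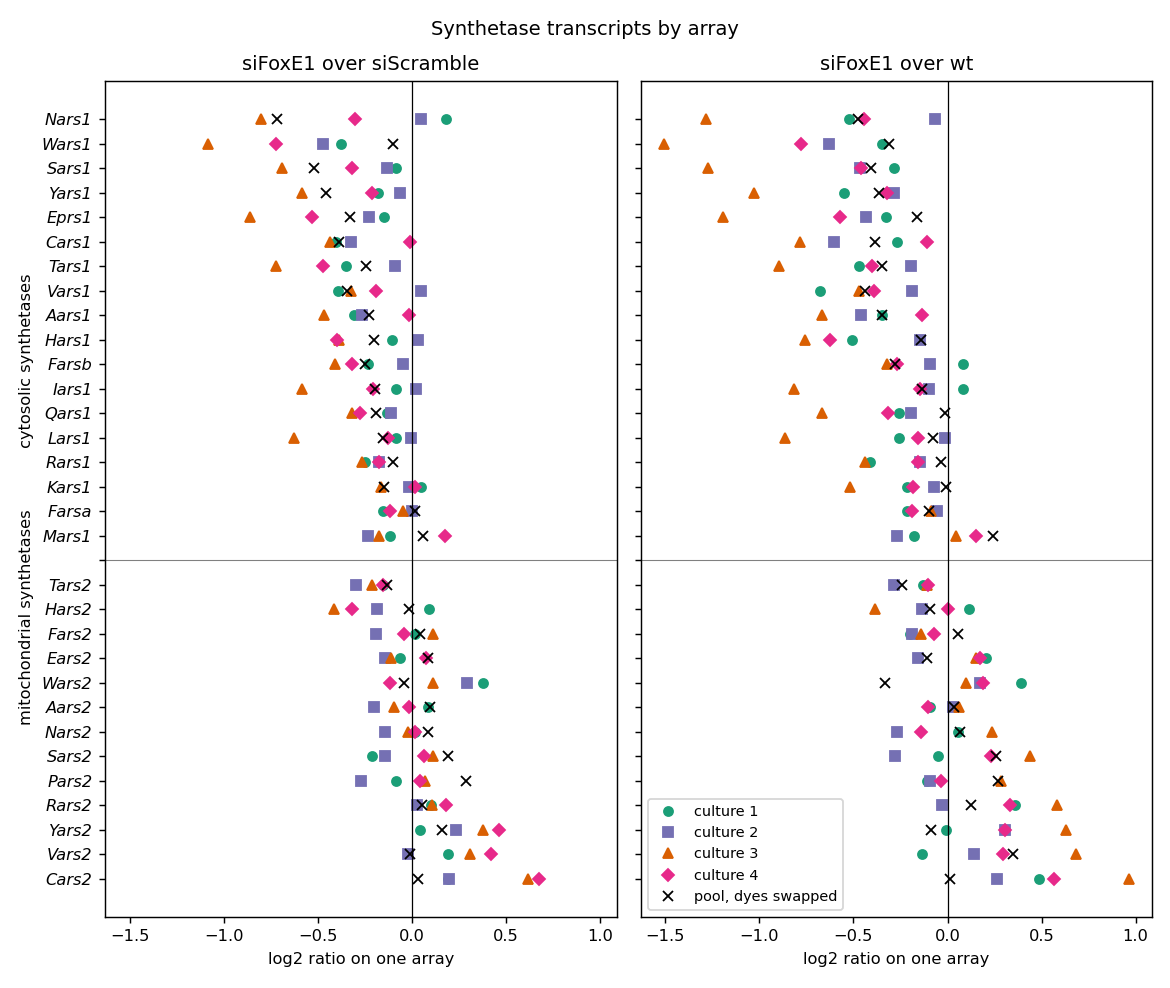
Log2 ratio of siFoxE1 over siScramble (left) and of siFoxE1 over wt (right) for each of the 31 measured synthetases, one symbol per array, coloured by culture with the dye-swapped pool as a cross. The cytosolic genes above the grey line lie mostly left of 0, farthest for culture 3, where Wars1 reached -1.08 and -1.51, and the mitochondrial genes below it lie on both sides of 0.

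By the fitted values averaged over both comparisons, the cytosolic members farthest from 0 were the asparaginyl, tryptophanyl and seryl enzymes. Nars1, which loads asparagine, had log2 ratios over siScramble of 0.18, 0.05, -0.80 and -0.30 in cultures 1 to 4 and -0.72 in the pool. Its ratios over wt were -0.52, -0.07, -1.28 and -0.44 in cultures 1 to 4 and -0.48 in the pool. The ratio was thus below 0 in cultures 3 and 4 and the pool of both comparisons and above 0 in cultures 1 and 2 against siScramble. The fitted values were -0.47 ± 0.17 (SE, adjusted p = 0.301) and -0.53 ± 0.20 (SE, adjusted p = 0.27), and the second Nars1 probe gave -0.37 and -0.61.

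Wars1 loads tryptophan, and its human gene is also known to respond to interferon gamma. Its ratios over siScramble were -0.38, -0.47, -1.08 and -0.72 in cultures 1 to 4 and -0.10 in the pool. Those over wt were -0.35, -0.63, -1.51 and -0.78 in cultures 1 to 4 and -0.31 in the pool. With this probe all 10 arrays were below 0, and the dye-swapped pools were nearest to it. A second Wars1 probe gave 0.09, 0.19, -0.61 and -0.24 in cultures 1 to 4 and -0.66 in the pool against siScramble, and -0.13, 0.02, -1.19, -0.40 and -0.64 against wt. Its pool was thus the lowest array against siScramble, and cultures 1 and 2 were above 0 there. The fitted values of the 2 probes were near each other, -0.38 ± 0.13 (SE, adjusted p = 0.285) and -0.56 ± 0.20 (SE, adjusted p = 0.25) for the first and -0.40 and -0.53 for the second. The 4 culture arrays alone, without the pool, gave -0.66 (adjusted p = 0.0341, limma) against siScramble and -0.82 (adjusted p = 0.0633) against wt with the first probe, but -0.14 (adjusted p = 0.51) and -0.43 (adjusted p = 0.191) with the second, so the call made without the pool held for 1 of 2 probes.

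Sars1, the seryl enzyme, was represented by a probe spotted 10 times. Its ratios over siScramble were -0.08, -0.13, -0.69 and -0.32 in cultures 1 to 4 and -0.52 in the pool. Its ratios over wt were -0.29, -0.47, -1.27 and -0.46 in cultures 1 to 4 and -0.41 in the pool. Every array was below 0, with fitted values of -0.41 ± 0.11 (SE, adjusted p = 0.234) and -0.52 ± 0.18 (SE, adjusted p = 0.249).

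Yars1, the tyrosyl enzyme, had ratios over siScramble of -0.18, -0.06, -0.59 and -0.21 in cultures 1 to 4 and -0.46 in the pool. The arrays against wt gave -0.55, -0.28, -1.03 and -0.32 in cultures 1 to 4 and -0.37 in the pool. The lowest array was again that of culture 3, and the fit gave -0.36 ± 0.10 (SE, adjusted p = 0.237) and -0.46 ± 0.14 (SE, adjusted p = 0.239).

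Eprs1 encodes a fused enzyme that loads both glutamate and proline. Its ratios over siScramble were -0.15, -0.23, -0.86 and -0.53 in cultures 1 to 4 and -0.33 in the pool. With wt as the partner they were -0.33, -0.43, -1.19 and -0.57 in cultures 1 to 4 and -0.16 in the pool. Cultures 3 and 4 were the lowest in both comparisons, and the fitted values were -0.39 ± 0.13 (SE, adjusted p = 0.288) and -0.40 ± 0.16 (SE, adjusted p = 0.278).

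Cars1, the cysteinyl enzyme, had ratios over siScramble of -0.40, -0.32, -0.43 and -0.01 in cultures 1 to 4 and -0.39 in the pool. Against wt cells they stood at -0.27, -0.61, -0.79 and -0.11 in cultures 1 to 4 and -0.39 in the pool. Culture 4 was close to 0 for this gene, unlike for Eprs1 and Wars1. The fitted values were -0.34 ± 0.092 (SE, adjusted p = 0.23) and -0.41 ± 0.13 (SE, adjusted p = 0.241).

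Tars1, the threonyl enzyme, had ratios over siScramble of -0.35, -0.09, -0.72 and -0.47 in cultures 1 to 4 and -0.25 in the pool. Over wt they were -0.47, -0.19, -0.90 and -0.40 in cultures 1 to 4 and -0.35 in the pool. All arrays were below 0, and the fitted values were -0.33 ± 0.11 (SE, adjusted p = 0.292) and -0.42 ± 0.13 (SE, adjusted p = 0.239), with -0.34 and -0.34 for its second probe.

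Vars1, the valyl enzyme, differed from these genes in that its lowest culture was culture 1. Its ratios over siScramble were -0.39, 0.05, -0.32 and -0.19 in cultures 1 to 4 and -0.35 in the pool. The arrays against wt gave -0.68, -0.19, -0.47 and -0.39 in cultures 1 to 4 and -0.44 in the pool. The fit gave -0.28 ± 0.092 (SE, adjusted p = 0.285) and -0.44 ± 0.100 (SE, adjusted p = 0.234).

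The other 10 cytosolic members had fitted values between -0.25 and -0.01 against siScramble and between -0.38 and 0.09 against wt. Aars1, the alanyl enzyme, stood at -0.25 and -0.38 and Hars1, the histidyl enzyme, at -0.21 and -0.33. The phenylalanyl enzyme has a catalytic alpha subunit, from Farsa, and a beta subunit, from Farsb. Farsa stood at -0.03 against siScramble and -0.12 against wt, and Farsb at -0.25 and -0.22. Kars1, which serves both compartments, stood at -0.09 and -0.13. Iars1, Lars1, Qars1 and Rars1, for isoleucine, leucine, glutamine and arginine, lay between -0.21 and -0.16 against siScramble and between -0.20 and -0.16 against wt. Mars1 was the cytosolic member nearest to 0, with ratios over siScramble of -0.12, -0.23, -0.18 and 0.18 in cultures 1 to 4 and 0.06 in the pool. Below 0 on all 5 arrays of the comparison were 11 of 18 cytosolic members against siScramble and 15 of 18 against wt, where 9.99% and 12.8% of all tested probes were.

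In mammals 7 of the measured cytosolic enzymes (Eprs1, Iars1, Kars1, Lars1, Mars1, Qars1 and Rars1) sit together in the multisynthetase complex. This grouping was made after the values had been seen. The 7 had a median fitted value of -0.18 against siScramble and -0.19 against wt, and the 11 enzymes outside the complex -0.33 and -0.42. At an unadjusted p under 0.05 stood 3 of 7 in the complex and 9 of 11 outside it against siScramble, and 1 of 7 and 9 of 11 against wt. Of all tested probes 6.71% and 9.14% were lower at that level in the 2 comparisons. Of the 3 accessory proteins of the complex, which load no tRNA, Aimp1 stood at -0.24 and -0.34, Eef1e1 at -0.22 and -0.41 and Aimp2 at -0.02 and -0.08, none of them past an adjusted p of 0.05. The difference between the 2 groups of enzymes was not tested.

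Promoter sequence was examined as a property that the choice of members had not used. ATF4 binds, together with a C/EBP factor, a composite element that is spelled TGATGNAA here. RefSeq promoter windows (build GRCr8, 250 bases before to 50 after the start site) were matched for 33 of the 35 genes, all but Gars1 and Rars1, and both strands were searched. The element was found in 7 of 17 cytosolic promoters and in 0 of 16 mitochondrial ones, and in 3.82% of all 27457 promoters. All 7 held the form TGATGCAA, which 0.743% of all promoters hold. The sites of 6 of these genes are printed so that the bases around the element can be compared between genes. The search itself fixed every letter of the element but the N. Each is written 5′ to 3′ on the strand that reads TGATGCAA, in capitals, with up to 11 bases on either side.
Nars1, chr18:60275778-60275807, minus strand: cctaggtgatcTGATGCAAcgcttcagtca
Tars1, chr2:62114811-62114840, plus strand: agctaaccagcTGATGCAAcgggacgccag
Cars1, chr1:208225334-208225363, plus strand: tttccagaatcTGATGCAAccgcggcgccg
Yars1, chr5:146820190-146820212, plus strand: acgagctcagcTGATGCAAcctg
Iars1, chr17:15193658-15193687, plus strand: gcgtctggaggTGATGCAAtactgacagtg
Mars1, chr7:65023752-65023781, plus strand: ggagcccacgcTGATGCAAccggaacgggc

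Among these 6 sites the base before the element was a C in 5, and a C followed it in 5. How often a C stands there in other promoters is not given here. The sites of Mars1, Nars1, Iars1 and Tars1 lay within 27 bases upstream of the start site, and those of Cars1 and Yars1 began 18 and 39 bases into the transcript. The Yars1 site ended 4 bases before the end of the window. A match is a description of letters and not a measured site. The 7 genes with the element had a median fitted value of -0.33 against siScramble (range -0.47 to -0.01), and the 10 cytosolic genes without it -0.23 (range -0.41 to -0.03). Against wt the medians were -0.42 and -0.27. The ranges overlap, with Mars1 near 0 although it holds the element, and with Sars1, Wars1 and Eprs1 among the lowest without it. The ER stress element, CCAAT and CCACG with 9 bases between them, which ATF6 and NF-Y recognise, was in 0 of the 33 promoters and in 0.0765% of all. An NF1 half-site followed by a forkhead core (TTGG, 5 to 30 bases, then AAACA), the arrangement through which FoxE1 acts with NF1/CTF, was found in Qars1 and Sars2, and in 7.3% of all promoters.

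The promoters of the asparaginyl pair are shown up to the start site, because Nars1 holds the element and Nars2 does not. The 250 bases before the start sites of Nars1 and Nars2 are given for GRCr8 with the TGATGCAA of Nars1 in capitals. Nars1 had the fitted value farthest from 0 of the measured members when both comparisons were averaged (-0.50), and Nars2 stood at 0.02.
Nars1, chr18:60275783-60276032, minus strand: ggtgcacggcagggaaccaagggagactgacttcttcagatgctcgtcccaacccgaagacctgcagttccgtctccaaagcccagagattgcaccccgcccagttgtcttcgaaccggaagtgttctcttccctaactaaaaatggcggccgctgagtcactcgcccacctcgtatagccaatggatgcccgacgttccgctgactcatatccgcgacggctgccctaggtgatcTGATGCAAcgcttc
Nars2, chr1:160711467-160711716, plus strand: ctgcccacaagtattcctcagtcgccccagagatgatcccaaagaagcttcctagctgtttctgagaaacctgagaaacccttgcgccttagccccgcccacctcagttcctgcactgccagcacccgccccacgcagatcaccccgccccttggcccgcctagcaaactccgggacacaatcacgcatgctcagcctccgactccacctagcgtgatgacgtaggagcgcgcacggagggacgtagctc

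The mitochondrial members with the largest values went in both directions. Cars2, the mitochondrial cysteinyl enzyme, which also makes cysteine persulfides in mammalian cells, had ratios over siScramble of 0.19, 0.20, 0.62 and 0.68 in cultures 1 to 4 and 0.03 in the pool. With wt as the partner they were 0.49, 0.26, 0.97 and 0.57 in cultures 1 to 4 and 0.01 in the pool. All 10 arrays were above 0, but the pools with exchanged dyes were much nearer to it than the culture arrays. The fit gave 0.23 ± 0.11 (SE, adjusted p = 0.434) and 0.29 ± 0.13 (SE, adjusted p = 0.301).

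Tars2, the mitochondrial threonyl enzyme, was the one mitochondrial member below 0 on every array. Its ratios over siScramble were -0.16, -0.30, -0.21 and -0.15 in cultures 1 to 4 and -0.13 in the pool. Against wt cells they stood at -0.13, -0.28, -0.11 and -0.10 in cultures 1 to 4 and -0.24 in the pool. The fitted values were -0.17 ± 0.067 (SE, adjusted p = 0.34) and -0.20 ± 0.072 (SE, adjusted p = 0.255), and its second probe gave -0.16 and -0.15.

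Vars2, the mitochondrial valyl enzyme, had ratios over siScramble of 0.19, -0.02, 0.31 and 0.42 in cultures 1 to 4 and -0.01 in the pool. Over wt they were -0.13, 0.14, 0.68 and 0.30 in cultures 1 to 4 and 0.35 in the pool. Both comparisons held arrays on either side of 0, and the fit gave 0.11 ± 0.091 (SE, adjusted p = 0.677) and 0.30 ± 0.14 (SE, adjusted p = 0.327).

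Yars2, the mitochondrial tyrosyl enzyme, had ratios over siScramble of 0.05, 0.24, 0.38 and 0.46 in cultures 1 to 4 and 0.16 in the pool. The arrays against wt gave -0.01, 0.30, 0.63 and 0.31 in cultures 1 to 4 and -0.09 in the pool. It was above 0 on all arrays against siScramble and on 3 of 5 against wt, with fitted values of 0.22 ± 0.089 (SE, adjusted p = 0.353) and 0.11 ± 0.12 (SE, adjusted p = 0.65).

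Rars2, the mitochondrial arginyl enzyme, had ratios over siScramble of 0.10, 0.03, 0.11 and 0.18 in cultures 1 to 4 and 0.05 in the pool. With wt as the partner they were 0.36, -0.03, 0.58 and 0.33 in cultures 1 to 4 and 0.12 in the pool. The fit gave 0.08 ± 0.066 (SE, adjusted p = 0.678) and 0.22 ± 0.12 (SE, adjusted p = 0.361). Above 0 on all 5 arrays were 3 of 13 mitochondrial members against siScramble (Cars2, Rars2 and Yars2) and 1 of 13 against wt (Cars2), beside 7.77% and 9.24% of all tested probes.

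The other 8 mitochondrial members had fitted values between -0.11 and 0.11 against siScramble and between -0.10 and 0.17 against wt. Aars2, Ears2, Fars2 and Nars2 were within 0.05 of 0 in both.

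Of the partners for the same amino acid not yet described, 4 are mitochondrial, and each of them had arrays on both sides of 0. Sars2, the mitochondrial seryl enzyme, had ratios over siScramble of -0.21, -0.14, 0.11 and 0.07 in cultures 1 to 4 and 0.19 in the pool. Its ratios over wt were -0.05, -0.28, 0.44 and 0.23 in cultures 1 to 4 and 0.26 in the pool. Cultures 1 and 2 were below 0 and the other arrays above it, with fitted values of 0.08 ± 0.083 (SE, adjusted p = 0.765) and 0.17 ± 0.14 (SE, adjusted p = 0.529).

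Nars2, the mitochondrial asparaginyl enzyme, had ratios over siScramble of 0.02, -0.14, -0.02 and 0.01 in cultures 1 to 4 and 0.09 in the pool. Over wt they were 0.06, -0.27, 0.24 and -0.14 in cultures 1 to 4 and 0.07 in the pool. The fit gave 0.03 ± 0.067 (SE, adjusted p = 0.923) and 0.02 ± 0.11 (SE, adjusted p = 0.936), next to the low values of Nars1.

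Ears2, the mitochondrial glutamyl enzyme, had ratios over siScramble of -0.07, -0.14, -0.11 and 0.07 in cultures 1 to 4 and 0.09 in the pool. The arrays against wt gave 0.21, -0.16, 0.15 and 0.17 in cultures 1 to 4 and -0.11 in the pool. Its fitted values were 0.01 ± 0.071 (SE, adjusted p = 0.974) and -0.01 ± 0.090 (SE, adjusted p = 0.973).

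Wars2, the mitochondrial tryptophanyl enzyme, had ratios over siScramble of 0.38, 0.29, 0.11 and -0.12 in cultures 1 to 4 and -0.04 in the pool. With wt as the partner they were 0.39, 0.18, 0.10 and 0.19 in cultures 1 to 4 and -0.33 in the pool. The pool was below 0 in both comparisons, and the fit gave 0.06 ± 0.099 (SE, adjusted p = 0.857) and -0.06 ± 0.079 (SE, adjusted p = 0.729). A second probe gave -0.11 and -0.17, so the direction of the fitted value depended on the probe in the comparison with siScramble. Over the 4 culture arrays alone the direction against wt also depended on the probe, with 0.21 for the first and -0.22 for the second.

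Rars1, the cytosolic partner of Rars2, had ratios over siScramble of -0.25, -0.18, -0.27 and -0.18 in cultures 1 to 4 and -0.10 in the pool. Against wt cells they stood at -0.41, -0.15, -0.44 and -0.16 in cultures 1 to 4 and -0.04 in the pool. All 10 arrays were below 0, and the fitted values were -0.16 ± 0.065 (SE, adjusted p = 0.354) and -0.16 ± 0.087 (SE, adjusted p = 0.369).

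For 12 amino acids both enzymes were measured, and the cytosolic ratio was set against the mitochondrial one on the same array, the fused Eprs1 against Ears2 and the catalytic Farsa against Fars2. On the 5 arrays against siScramble the cytosolic gene had the lower ratio in 10, 6, 11 and 12 of 12 pairs in cultures 1 to 4 and in 12 of 12 in the pool. Against wt these counts were 12, 9, 11 and 12 of 12 in the cultures and 11 of 12 in the pool. Culture 2 had the fewest in both comparisons. By the fitted values, which carry the dye term, the cytosolic gene was the lower one in all 12 pairs of both comparisons. The cysteine pair stood at -0.57 against siScramble and -0.71 against wt, the tyrosine pair at -0.58 and -0.57, the serine pair at -0.49 and -0.69, and the valine pair at -0.39 and -0.74. The phenylalanine pair was nearest to 0 by these values, at -0.04 and -0.07. Over the 4 culture arrays, which all have one dye orientation, the cysteine pair gave -0.71 ± 0.23 and -1.01 ± 0.50 (SD, n = 4 each). The tryptophan pair depended on the pool, with -0.83 ± 0.25 and -1.03 ± 0.40 over the cultures (SD, n = 4 each), -0.06 and 0.02 in the pools and fitted differences of -0.45 and -0.51.

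**Figure D2:**
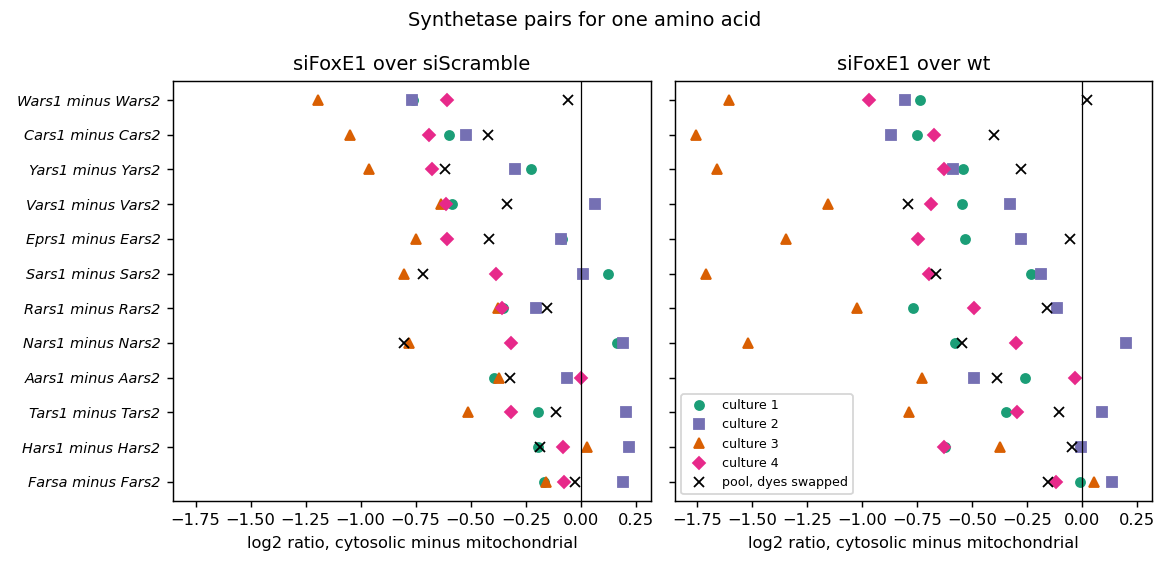
Log2 ratio of the cytosolic gene minus that of the mitochondrial gene for the same amino acid, for siFoxE1 over siScramble (left) and siFoxE1 over wt (right), one symbol per array. Most symbols lie left of 0, where the cytosolic gene had the lower ratio, in 12 of 12 pairs for culture 4 of both comparisons.

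The size of the contrast differed from culture to culture. Against siScramble the median of the cytosolic members was -0.15, -0.08, -0.45 and -0.21 in cultures 1 to 4 and -0.21 in the pool. The median of the mitochondrial members on those arrays was 0.05, -0.14, 0.11, 0.04 and 0.05. The cytosolic median was thus below the mitochondrial one on 4 of 5 arrays and 0.06 above it in culture 2. Against wt the cytosolic medians were -0.31, -0.19, -0.77 and -0.29 in cultures 1 to 4 and -0.22 in the pool, and the mitochondrial medians -0.01, -0.09, 0.24, 0.17 and 0.04. The cytosolic median was the lower one on all 5 of these arrays, by 1.01 in culture 3 and by 0.10 in culture 2.

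From the fitted values, the cytosolic median minus the mitochondrial median was -0.31 against siScramble and -0.37 against wt. Without the array of culture 3 these differences were -0.27 and -0.29, with the RNA of that culture still in the pool. The 4 culture arrays alone gave -0.18 against siScramble and -0.50 against wt, and those of cultures 1, 2 and 4 alone -0.131 and -0.315. The arrays against siScramble lay on 2 slides, and the difference of medians was -0.20, 0.06 and -0.25 on the slide with cultures 1, 2 and 4 and -0.56 and -0.27 on the slide with culture 3 and the pool. With the slide as a term it was -0.22. All arrays against wt shared 1 slide.

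Culture 3 was also the culture in which genes of the ER stress and amino acid programmes had their lowest ratios. The 31 measured targets of ATF4 and CHOP other than synthetases, among them Asns and the cystathionine lyase Cth, had medians of -0.16, -0.20, -0.58 and -0.24 in cultures 1 to 4 and -0.24 in the pool against siScramble, and of -0.26, -0.43, -0.97, -0.30 and -0.30 against wt. Their fitted values were below 0 for 29 of 31 genes against siScramble (median -0.28) and for 28 of 31 against wt (median -0.37). No gene of this list passed an adjusted p of 0.05. At an unadjusted p under 0.05, 21 of 31 and 15 of 31 were lower and none higher, beside 6.71% and 9.14% of all probes lower. The farthest from 0 were Herpud1, an ER protein of the degradation machinery, at -1.21 and -1.32, Ddit3, which encodes CHOP, at -0.99 and -0.96, and Nupr1, a stress-induced nuclear protein, at -0.72 and -1.16. Atf4 itself, singled out after its values had been seen, stood at -0.43 and -0.59.

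The 12 measured ER chaperones were the most uneven group. Their medians were -0.03, -0.09, -1.90 and -1.34 in cultures 1 to 4 and -0.69 in the pool against siScramble, and -0.36, -0.04, -2.73, -1.37 and -0.71 against wt. Cultures 3 and 4 were therefore more than 1 log2 unit below 0 and culture 2 was near 0. All 12 had fitted values below 0 in both comparisons (medians -0.69 and -0.93), with none past an adjusted p of 0.05. At an unadjusted p under 0.05, 3 of 12 and 2 of 12 were lower, beside 6.71% and 9.14% of all tested probes. The largest were Creld2 at -1.27 and -1.19, Hyou1 at -0.75 and -1.43, and Dnajc3 at -0.87 and -1.19. The order of the cultures was not the same in the 2 lists, since the cytosolic synthetases of culture 4 were near those of culture 1 against wt while the chaperones were not. The part of either programme in the values of the synthetases was not tested.

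**Figure D3:**
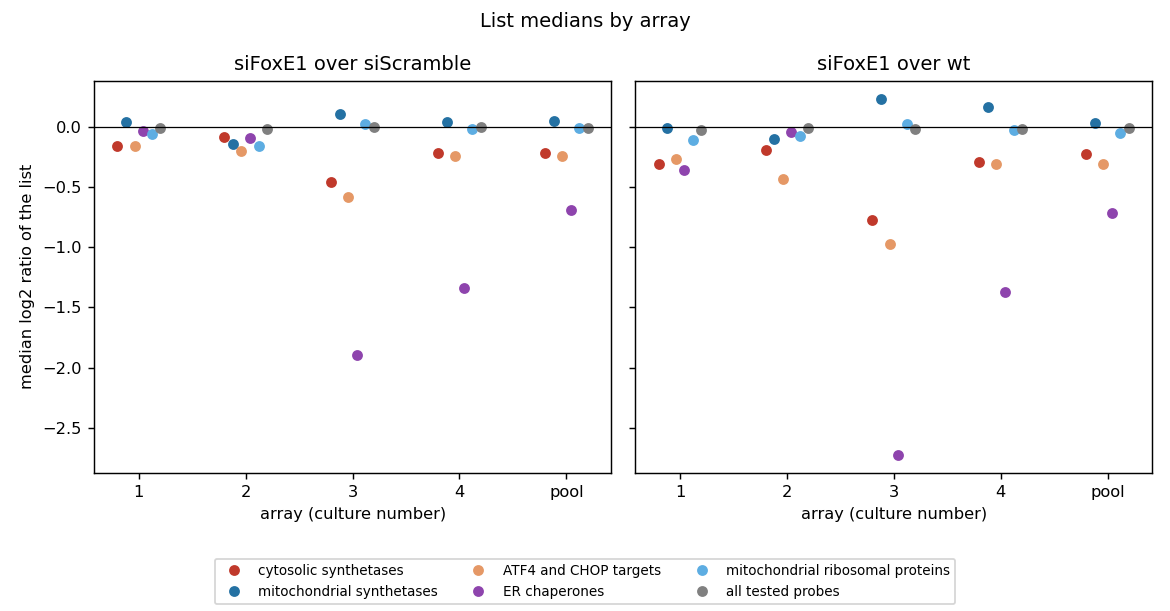
Median log2 ratio of each gene list on each array, for siFoxE1 over siScramble (left) and siFoxE1 over wt (right). Culture 3 is the lowest array for the cytosolic synthetases (-0.45 and -0.77) and for the ATF4 and CHOP targets (-0.58 and -0.97), the ER chaperones reach -1.90 and -2.73 in culture 3, and the 2 mitochondrial lists lie between -0.16 and 0.24.

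Other genes of translation and of tRNA handling had medians near 0. The 6 cytosolic elongation factors, which bring loaded tRNA to the ribosome and move it along, had a median of -0.07 against siScramble and -0.10 against wt, with 0 of 6 at an unadjusted p under 0.05 in either comparison by limma. The 28 measured mitochondrial ribosomal proteins had medians of -0.02 and -0.02, with 2 and 5 of 28 lower at that level. The 10 measured mitochondrial translation factors and glutamyl-tRNA amidotransferase subunits had medians of 0.03 and -0.01, with 2 and 1 higher. Xpot, the export gene of the tRNA list, was not among those measured. The 17 measured genes of tRNA processing and modification had medians of -0.05 and -0.06, with 4 and 5 of 17 lower. Among them Trmt6, a subunit of the methyltransferase that acts on adenosine in tRNA, stood at -0.50 and -0.62, Trmt1, a guanosine methyltransferase, at -0.26 and -0.36, and Elac2, which trims the 3′ end of precursor tRNA, at -0.24 and -0.30. No gene of these lists passed an adjusted p of 0.05. Of all tested probes 6.71% were lower and 6.42% higher at an unadjusted p under 0.05 against siScramble. Against wt these shares were 9.14% and 8.02%.

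The level of a synthetase transcript also differed between the cultures of one condition. A normalised level here is the log2 brightness of 1 channel. From the lowest to the highest of the 4 siScramble cultures a cytosolic member spanned 0.86 (median of 18 members) and a mitochondrial one 0.71 (median of 13), and in the wt cultures 0.82 and 0.54. Each culture was then set against the mean of the 4 cultures of its condition. In siFoxE1 cells, on the arrays shared with siScramble, the median deviation of the 18 cytosolic members was 0.12, -0.31, -0.22 and 0.43 in cultures 1 to 4, against 0.09, -0.49, 0.04 and 0.40 in siScramble cells. On the arrays shared with wt it was 0.09, -0.30, -0.24 and 0.40 in siFoxE1 cells, against 0.02, -0.45, 0.14 and 0.32 in wt cells. Culture 4 was thus highest and culture 2 lowest in siFoxE1, siScramble and wt cells alike, and the position of culture 3 was lower in siFoxE1 than in either control. The level was highest in culture 4 for 14 of 18 cytosolic members in siFoxE1 cells and for 15 of 18 in siScramble cells.

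Sars1 illustrates these levels. It had normalised log2 levels of 12.39, 11.11, 11.43 and 12.44 in siFoxE1 cultures 1 to 4, against 12.47, 11.24, 12.12 and 12.75 in the siScramble cultures. The levels of the 4 siFoxE1 cultures overlapped those of the 4 siScramble cultures, and the difference shows only culture by culture. Nars1 had 9.89, 8.76, 8.97 and 9.91 in siFoxE1 cultures, against 9.71, 8.71, 9.77 and 10.21 in siScramble cultures. The mitochondrial members had deviations of -0.21, -0.07, 0.15 and 0.10 in siFoxE1 cells, against -0.17, 0.05, 0.07 and 0.09 in siScramble cells, a narrower spread than that of the cytosolic ones. Over all tested probes no culture deviated by more than 0.02. The ER chaperones were highest in culture 1, at 1.85 in siFoxE1 cells against 1.02 in siScramble cells. On these arrays they were lowest in siFoxE1 culture 3 at -1.06 and in siScramble culture 2 at -1.87. On the arrays shared with wt the lowest was culture 2, at -0.92 in siFoxE1 cells and -2.14 in wt cells. There siFoxE1 culture 3 stood at -0.89, so the order of cultures 2 and 3 was not the same in both sets of arrays.

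**Figure D4:**
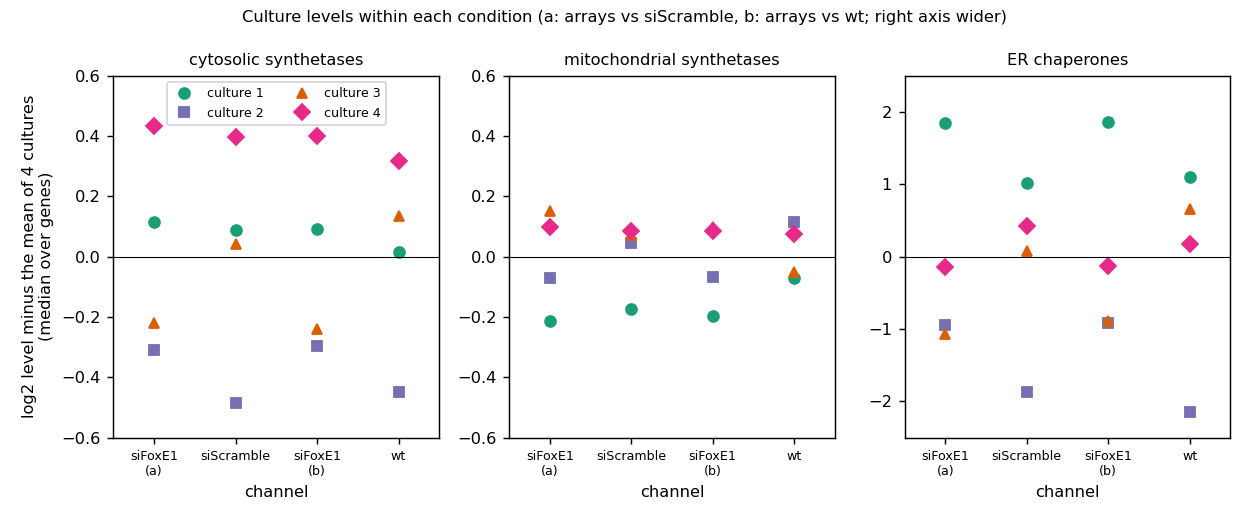
Median deviation of each culture's log2 level from the mean of the 4 cultures of its condition, for cytosolic synthetases, mitochondrial synthetases and ER chaperones (wider axis). Each symbol is a culture, and the cytosolic synthetases are highest in culture 4 (0.43 in siFoxE1 and 0.40 in siScramble cells) and lowest in culture 2 in every channel.

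The 2 controls were compared through the siFoxE1 RNA that both comparisons share. In this indirect contrast of siScramble over wt, the cytosolic members had a median of -0.12, with 16 of 18 below 0, and the mitochondrial members a median of 0.06, with 3 of 13 below 0. All arrays were fitted together without the culture block, so arrays that share siFoxE1 RNA were not paired in this test. The pools counted here like any culture array, and not as much as the 4 cultures together. These values are therefore not the differences between the main fitted values of the 2 comparisons. No member was called by limma, and of all 17802 probes 0% were called. By this unpaired test 0 of 18 cytosolic and 0 of 13 mitochondrial members reached an unadjusted p under 0.05. The share of all probes at that unadjusted level is not given here, so these counts have no background beside them. The values farthest from 0 were Nars1 at -0.24 ± 0.24, Sars1 at -0.23 ± 0.19 and Hars1 at -0.22 ± 0.13 (SE of the unpaired fit, adjusted p = 0.987 for each in limma). That SE is not the spread of the differences within the 4 cultures. Per culture the median over cytosolic members was -0.15, -0.12, -0.29 and -0.07. Between the pools the cytosolic members lay on both sides of 0, from -0.21 for Wars1 to 0.24 for Nars1. Sars1 at 0.11 and Hars1 at 0.06 were, like Nars1, above 0 there, opposite to their fitted values.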

How the data were processed

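RNA of siFoxE1, siScramble and wt PCCl3 cells was measured on 10 Agilent two-colour arrays, and each array was grouped by its title. Per the file headers, the authors extracted spot intensities with Feature Extraction 10.7.3.1, and median signal intensities per channel were used. The deposited log10 ratio of Cy5 over Cy3 and the authors' deposited log2 ratio table (made with limma 3.2.3 per the labels) served for checks of direction and as an alternative. The dyes were taken from the labels, and the pools were turned to siFoxE1 over reference. A colour key in the study draws the dyes the other way round, and Foxe1 was lower in the channel labelled siFoxE1.

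Background was corrected by normexp with an offset of 50, followed by loess within and quantile normalization between arrays. Control and outlier spots were left out (1.25% to 1.6% of 58717 spots), and spots were averaged to 30367 probes. A probe was tested if well above background on at least 3 of 5 arrays in either channel. The test was limma 3.58.1 with a dye term per comparison and Benjamini-Hochberg adjustment over all tested probes. The fit counts the pool as a further array although it repeats the 4 cultures. The brightest tested probe stood for a gene, and 17998 probes were named through RefSeq accessions. By the study's design scheme, and not by the labels, same-numbered culture arrays of the 2 comparisons share siFoxE1 RNA. They deviated together (correlation 0.406 to 0.763 over probes), although for culture 4 the 0.406 was below its highest correlation with another number (0.506; 0.391 to 0.506 over the cultures). Culture number was therefore also fitted as a block over all 10 arrays.

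The members and lists were chosen with earlier results of these data known. Named in full are the 8 cytosolic and 5 mitochondrial members with the largest values averaged over both comparisons, then their partners. Alternatives covered background, normalization, dye term, filter, probe choice, slide, block and each culture array left out (its RNA stayed in the pool). One promoter site and one marker gene are not reported here.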

Additional observations from a re-analysis of the deposited data

Results flagged for a closer look

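The values of the 18 named members and the medians of the 2 groups, 42 sets of 4 culture arrays, were searched for an array that stood far from the other three, and 2 were found. Tars2 over wt stood at -0.284 in culture 2, against -0.13, -0.11 and -0.10 in the others. Ears2 over wt stood at -0.155 in culture 2, against 0.15, 0.17 and 0.21. Chance alone flags about 1 in 20 such sets.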

How the results depend on the processing

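The order of the 2 groups did not depend on the settings tried: the cytosolic median minus the mitochondrial median stayed between -0.339 and -0.131 against siScramble over 24 alternatives and between -0.598 and -0.285 against wt over 23. The number of cytosolic members past an adjusted p of 0.05, 0 in the fits of 5 arrays, depended on how the pool and the dyes were treated. Against siScramble it was 4 without the dye term and 1 with the 4 culture arrays alone. Against wt it was 5 without the dye term, 8 with the replicate block over all 10 arrays and 7 in that joint fit without the block. With 1 culture array left out and the pool kept it was 0, but the pool still held the RNA of that culture. In an alternative chosen after seeing the data, each culture was therefore left out of the culture arrays alone. Without culture 2 this called 2 cytosolic members against siScramble (Tars1 and Wars1), and against wt 4 cytosolic (Hars1, Tars1, Vars1 and Yars1) and 2 mitochondrial members (Cars2 and Rars2, both higher). Without culture 3 it called 1 against wt (Wars1), and without culture 1 or 4 it called 0. How many of all probes these last fits called is not given here, so a rise among members cannot be told from a general one. Under the alternatives not named here no cytosolic member was called, and apart from Cars2 and Rars2 no mitochondrial one. The block changed no other call of a member. For siScramble over wt, compared indirectly, it called 0 members, and 11 of all probes where the joint fit without it called 0. The cause of these changes was not tested. Of all probes, the call count of 22 against siScramble became 688 without the dye term, 527 with the culture arrays alone, 64 with the block and 12 to 35 with 1 culture left out, and the 9 against wt became 845, 211, 1454 and 0 to 67. The joint fit without the block called 97 probes against siScramble and 1661 against wt (9.33%), 834 of the latter lower. The count was 0 in both comparisons with the processed signals of Feature Extraction. No scaling moved the median of all probes by more than 0.03.

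Among named members the sign turned only where the value was close to 0. Ears2 against siScramble turned to -0.010 with the processed signals, -0.032 without the dye term, -0.061 with the culture arrays alone and -0.041 in both joint fits, and ran from -0.010 to 0.025 with 1 culture left out. Ears2 against wt turned to 0.027, 0.054, 0.095 and 0.045 under those settings, to 0.018 as the mean of its probes, and ran from -0.026 to 0.034 with 1 culture left out. Nars2 turned to -0.010 without the dye term and -0.034 with the culture arrays alone against siScramble, and to -0.009 and -0.028 against wt, where it ran from -0.025 to 0.059 with 1 culture left out. Sars2 against siScramble turned to -0.043 with the culture arrays alone. Wars2 turned to -0.023 with the processed signals and -0.026 as the mean of its probes against siScramble, and to 0.104 without the dye term and 0.213 with the culture arrays alone against wt. With only 4 cultures, and with the pool repeating them, a difference of the size seen here can miss the threshold, which does not show that the levels were alike.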
